A study of Mus musculus with 12 samples.

Results

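Transcript isoform shares were compared between hippocampi of mice lacking NONO (knockout, KO) and wild-type (WT) mice. The share of a transcript is its estimated read count as a percentage of the summed count of all transcripts of its gene in the same library. Genes with 2 or more RefSeq transcripts and a summed count of at least 50 in every library were kept, which gave 2494 genes with 6733 transcripts, of 4258 genes with more than one transcript and of 23329 genes in all. Of the 2494, 1554 had exactly 2 transcripts, 541 had 3 and 399 had 4 or more. Polyadenylated RNA was sequenced from adult C57BL/6 hippocampi in 12 libraries, 3 each of WT at the label CT10, KO at CT10, WT at CT22 and KO at CT22. The labels name the KO animals by the missing protein alone, without the allele, sex or exact age. The labels do not say whether each library is a separate animal, and the p-values then measure only how these libraries spread, which may be technical.

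NONO is a nuclear protein of the DBHS family that binds RNA and DNA, forms dimers with its paralogs SFPQ and PSPC1 and takes part in transcription, pre-mRNA splicing and RNA 3′ end processing. One gene gives several transcripts by starting at different first exons, by including or skipping internal exons, by using different splice sites and by ending at different last exons. In neurons such choices set which domains a synaptic or signalling protein carries.

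Library totals ran from 4435606 to 10911046 estimated counts, of which 28.9% to 30.0% fell in the genes compared. Nono itself had 1147 to 1814 counts in each WT library and 0 to 4 in each KO library, so it was not among the 2494. The summed level of 10 markers of hippocampal neurons was 6723 to 9189 CPM (counts scaled to library size) in WT and 5953 to 9576 CPM in KO, with none of the 10 at 0 in any library. The summed level of 14 choroid plexus markers was unequal, at 339 to 2208 CPM in WT and 234 to 5286 CPM in KO. Thalamus and striatum markers summed to 205 to 228 CPM in WT and 202 to 401 CPM in KO, meningeal and fibroblast markers to 112 to 388 and 170 to 592 CPM, and microglial markers to 536 to 622 and 480 to 579 CPM. The part of these markers in the results was not tested, other than for the choroid plexus. The clock output gene Dbp stood at 33.5 CPM in KO CT10 replicate 3 and 91.1 CPM in KO CT22 replicate 1, each within the range of the libraries with the other CT label. Transcript shares of each pair of libraries had a Pearson correlation across transcripts between 0.949 and 0.965, and 0 pairs were identical.

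The structures that distinguish the transcripts described first are shown by coding sequence from GENCODE M21 on GRCm38 (mm10) to show the coding bases in which they differ, which for Rasgrf1 and Armc8 are only part of the bases that tell the transcripts apart. The short Rasgrf1 transcript NM_001039655 leaves the full-length form after the first exon. It continues through 2 exons of its own (chr9:89911448-89911592 and chr9:89915492-89915604 for the coding part, plus strand). Capitals mark the coding bases of these exons, and small letters the 15 shared bases before them.
Rasgrf1 NM_001039655: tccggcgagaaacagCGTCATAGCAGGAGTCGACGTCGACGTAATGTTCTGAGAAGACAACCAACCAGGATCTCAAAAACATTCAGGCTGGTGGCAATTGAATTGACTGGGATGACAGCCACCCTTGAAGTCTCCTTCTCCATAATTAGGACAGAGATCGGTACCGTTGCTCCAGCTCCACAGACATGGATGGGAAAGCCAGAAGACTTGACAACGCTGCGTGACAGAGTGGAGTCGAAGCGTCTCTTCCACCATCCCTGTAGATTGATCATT

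The short Armc8 transcript NM_001166138 reads past the splice donor at which the long form leaves the same exon (chr9:99520424-99520582, minus strand). Capitals mark the coding bases past that donor.
Armc8 NM_001166138: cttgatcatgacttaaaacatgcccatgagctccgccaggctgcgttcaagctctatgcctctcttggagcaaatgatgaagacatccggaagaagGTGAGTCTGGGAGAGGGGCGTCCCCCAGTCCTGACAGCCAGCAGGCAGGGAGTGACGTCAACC

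The Stau2 transcript NM_025303 holds an exon that NM_001111272 skips, and this exon carries the start codon of its protein (chr1:16486020-16486133, minus strand). Capitals mark the start codon.
Stau2 NM_025303: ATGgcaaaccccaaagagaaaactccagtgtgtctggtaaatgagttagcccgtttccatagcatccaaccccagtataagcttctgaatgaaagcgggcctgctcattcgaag

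The App transcript NM_001198823 includes a pair of exons that the main brain form NM_007471 lacks (chr16:85043576-85043743 and chr16:85040251-85040307, minus strand). Capitals mark the longer of them, of 168 bases, which encodes the Kunitz protease inhibitor domain, and small letters the 57 bases of the other.
App NM_001198823: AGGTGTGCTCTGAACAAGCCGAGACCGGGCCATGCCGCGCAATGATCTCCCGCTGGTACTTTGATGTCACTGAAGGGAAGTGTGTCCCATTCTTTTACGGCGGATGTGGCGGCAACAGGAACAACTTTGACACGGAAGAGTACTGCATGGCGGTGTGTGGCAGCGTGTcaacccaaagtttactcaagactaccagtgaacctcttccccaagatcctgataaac

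The Abat transcript NM_001170978 skips a coding exon of 168 bases present in NM_172961 (chr16:8611127-8611294, plus strand). Capitals mark the skipped exon, and small letters the 15 bases on each side in the mature transcript.
Abat NM_172961: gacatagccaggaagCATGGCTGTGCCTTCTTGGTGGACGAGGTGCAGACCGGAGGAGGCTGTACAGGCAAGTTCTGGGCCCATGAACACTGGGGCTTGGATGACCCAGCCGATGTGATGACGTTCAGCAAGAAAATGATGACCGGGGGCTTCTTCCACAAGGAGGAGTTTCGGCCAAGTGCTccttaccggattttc

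**Figure D1:**
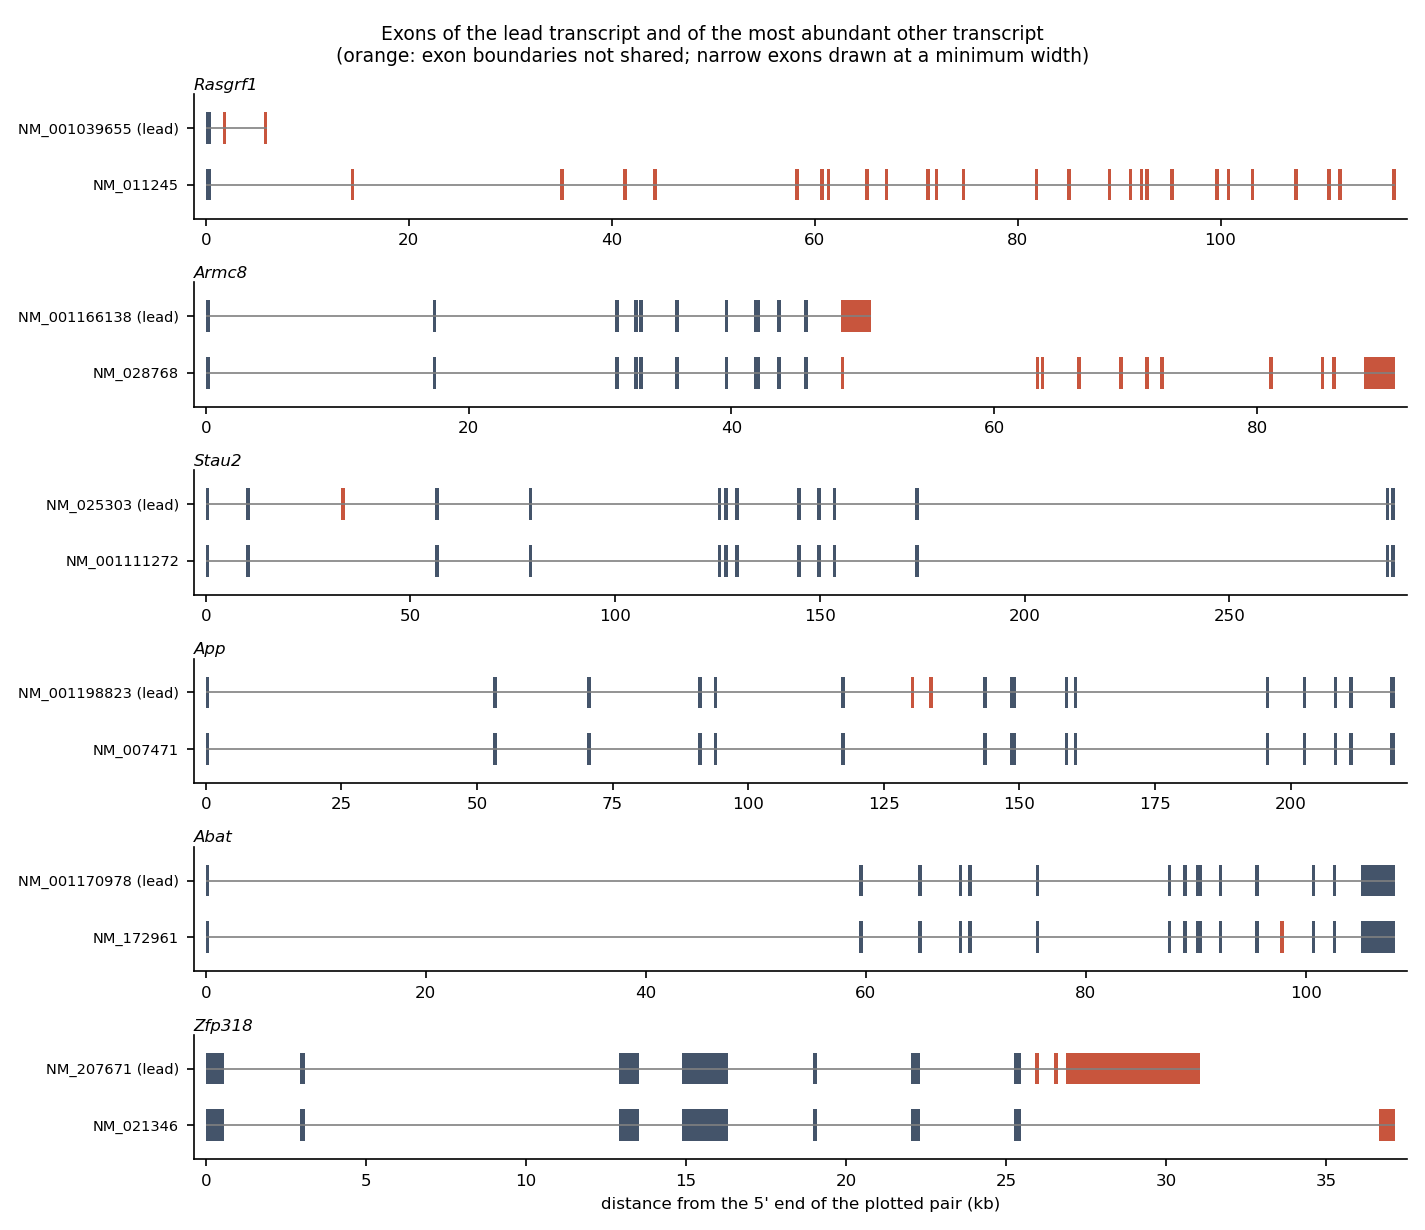
Exon models (boxes) of the lead transcript and of the most abundant other transcript of 6 genes, drawn 5′ to 3′ as distance in kilobases from the 5′ end of each pair. Orange marks exons whose boundaries the pair does not share, in either transcript. Among them are 2 exons in the short Rasgrf1 form, 1 exon in the Stau2 lead, 2 in the App lead, and 1 exon in the Abat form that is not the lead. The full-length Rasgrf1 form and both forms of Armc8 and of Zfp318 also hold orange exons, not counted here.

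The first comparison asked which genes divide their reads among transcripts differently in KO and WT, over both CT labels. In the test used, 1 gene of 2150 (0.0465%) changed its isoform shares, Rasgrf1, with 1 transcript of 5336 (0.0187%), which fell. Rasgrf1 encodes a calcium-responsive exchange factor that activates Ras in neurons. The test was edgeR's quasi-likelihood test of transcript counts with the gene's summed count as offset, 4 group means and Benjamini-Hochberg adjustment at 0.05. It covered 5336 transcripts with a mean of at least 10 counts in 2150 genes with at least 2 such transcripts. The other 344 genes had fewer than 2 such transcripts. At an unadjusted p under 0.05 stood 82 genes (3.81%), below the 107.5 that chance gives, and 239 transcripts (4.48%), 125 higher (2.34%) and 114 lower (2.14%). The median log2 change of all tested transcripts was 0.00.

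Rasgrf1 (chromosome 9, 89909775 to 90026979, plus strand) is listed with a full-length transcript of 27 exons, NM_011245, and the short transcript of 3 exons, NM_001039655. The short form had shares of 2.53%, 2.56% and 2.77% in WT at CT10 and of 2.96%, 3.0% and 2.34% in WT at CT22. In KO it had 0.908%, 0.807% and 1.11% at CT10 and 1.04%, 1.37% and 1.01% at CT22. Every KO library was below every WT library, under both CT labels. The mean share fell from 2.69% ± 0.260 to 1.04% ± 0.194 (SD, n = 6 each), a log2 change of −1.37 (SE 0.15, edgeR adjusted p = 0.0226 for the transcript and 0.0182 for the gene). On a linear scale this was 0.387 times the WT share, with a 95% interval of 0.308 to 0.486. An exact two-sided permutation test of genotype within CT label gave p = 0.005, the smallest its 400 arrangements allow. Rasgrf1 was chosen for its low p, and 9 other named genes that did not pass the adjusted test reached the same permutation p. The CT10 libraries alone gave a log2 change of −1.47 and the CT22 libraries −1.27, and a test of this difference in edgeR gave an adjusted p of 1.00.

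The level of the short Rasgrf1 form fell as well, from 14.4 ± 1.69 to 6.56 ± 1.19 CPM (SD, n = 6 each). The log2 change of this level was −1.14 with an SE of 0.13, and 4 of 17186 transcripts passed (0.0233%), this one with an edgeR adjusted p of 0.0256. These levels rest on 103 to 153 estimated counts of the short form per WT library and on 33.5 to 74.7 per KO library. For the full-length form the levels were 519 (WT) and 623 CPM (KO), a log2 change of 0.26 at an edgeR adjusted p of 0.571. The whole gene had 532 and 629 CPM, a log2 change of 0.24 at an edgeR adjusted p of 0.485. Per length, in TPM units, the short form made up 11% of Rasgrf1 transcripts in WT and 4.46% in KO, since it is 1000 bases long against 4228. The authors' posterior bounds on its level overlapped between genotypes, from 23.7 to 50.7 TPM over the WT libraries and from 8.45 to 30.3 TPM over the KO libraries.

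The size of the Rasgrf1 change was stable while its call was not. Leaving out each library in turn gave log2 changes of −1.45 to −1.32, with transcript adjusted p values from 0.0117 to 0.143, and the transcript call held in 6 of 12 runs. The transcript call was lost without any one of the 6 WT libraries (adjusted p = 0.0517 to 0.143). The gene call was lost without any WT library other than CT22 replicate 3 and without KO CT10 replicate 2 (gene adjusted p = 0.0759). The transcript call was also lost without the 4 libraries that led their groups in choroid plexus markers (−1.35, adjusted p = 0.494), and without the KO pair whose Dbp level fitted the other CT label (−1.40, adjusted p = 0.0549).

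The 20 genes named here are Rasgrf1 and the 19 with the next smallest gene p values; none of the 19 passed the test, and their gene adjusted p values were 0.822 or 1.00 in edgeR. In each, the lead transcript is the one with the smallest p. These genes were taken from the low end of the p values, so their values are a description. For 7 of the 20 lead transcripts all KO libraries lay on one side of all WT libraries, and 6 of the 20 were listed at 0 in at least one library. Among all tested transcripts 24 (0.45%) had such groups without overlap, 13 higher (0.244%) and 11 lower (0.206%) in KO, in 12 genes (0.558%), and 11 of the 2150 lead transcripts did (0.512%). Of the 24, 6 belonged to D14Ertd449e, whose 2 transcripts the files list at several positions with equal shares.

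**Figure D2:**
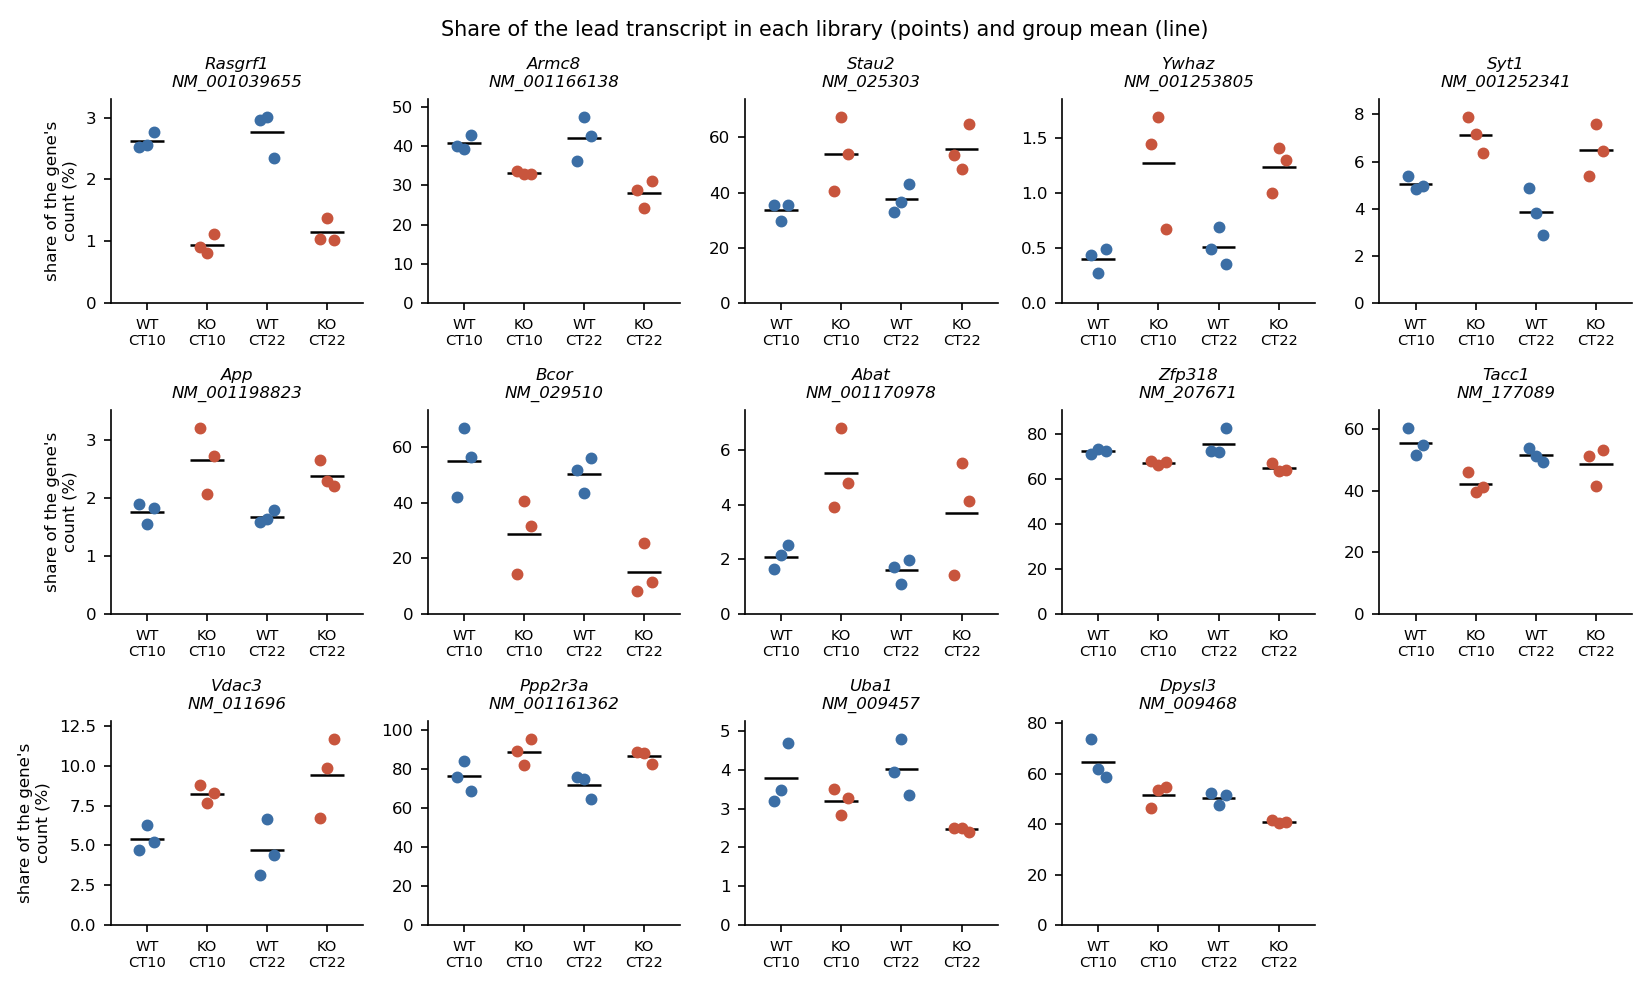
Share of the lead transcript in its gene's count (vertical axis, %) for the 14 named genes whose lead transcript was above 0 in every library, by genotype and CT label. Points are libraries (3 per group), lines are group means, blue is WT and orange is KO; Rasgrf1 reaches at most 1.37% in a KO library and at least 2.34% in a WT library.

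Armc8 and Zfp318 have transcripts that differ in their last exon. Armc8 (chromosome 9, 99478391 to 99568899, minus strand) encodes an armadillo-repeat subunit of the CTLH ubiquitin ligase complex. Its short transcript of 12 exons had shares of 40.1%, 39.2% and 42.9% in WT at CT10 and of 36.1%, 47.3% and 42.6% in WT at CT22. The KO values were 33.7%, 32.8% and 32.9% at CT10 and 28.8%, 24.3% and 31.1% at CT22. All 6 KO libraries were below all 6 WT libraries, by the narrowest margin between WT CT22 replicate 1 and KO CT10 replicate 1. Mean shares were 41.4% ± 3.81 (WT) and 30.6% ± 3.55 (KO; SD, n = 6 each), with a log2 change of −0.44, an SE of 0.08 and an edgeR gene adjusted p of 0.822. The short form's level was 36.1 CPM in WT and 25 CPM in KO, while the long form had 51.3 and 56.6 CPM. Zfp318, a zinc finger gene (chromosome 17, 46383766 to 46420918), had its lead NM_207671, which ends at the nearer last exon, at 71.2% to 82.5% in WT and 63.4% to 67.8% in KO. The groups did not overlap (means 74.0% and 66.0%, log2 change −0.16, edgeR gene adjusted p = 1.00).

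Several of the 19 differ by internal exons. Stau2 encodes Staufen 2, a double-stranded RNA-binding protein that carries mRNA into dendrites (chromosome 1, 16228810 to 16519302, minus strand). Its lead NM_025303, with the exon that holds a start codon of its own, had shares of 29.8% to 43.1% (median 35.5%) in WT and of 40.7% to 67.2% (median 53.8%) in KO. The groups overlapped through KO CT10 replicate 1 and WT CT22 replicate 3, and within each CT label all KO libraries were above all WT libraries. The mean was 35.6% ± 4.42 in WT and 54.8% ± 9.95 in KO (log2 change 0.63, SE 0.13, edgeR gene adjusted p = 0.822), with the gene's level at 87.5 and 88.5 CPM.

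App encodes the amyloid precursor protein. Its form NM_001198823, with both optional exons, had shares of 1.55% to 1.89% in WT and of 2.06% to 3.20% in KO, with no overlap. Mean shares were 1.72% ± 0.141 (WT) and 2.52% ± 0.418 (KO; SD, n = 6 each), with a log2 change of 0.56, an SE of 0.11 and an edgeR gene adjusted p of 0.822. Summed over the 4 of 5 App transcripts that hold the exon of the Kunitz domain, the share was 5.12% to 6.43% in WT and 5.08% to 8.75% in KO, so these sums overlapped. Summed over the 2 of 5 that hold the exon of 57 bases, the share was 2.37% to 2.71% in WT and 2.73% to 4.50% in KO, without overlap. In each of the 4 groups the library with the highest sum for the Kunitz exon was the one highest in choroid plexus markers, at 6.34% and 6.43% in WT and 8.75% and 8.24% in KO, and the part of these markers in that sum was not tested. With the marker score as a covariate the log2 change of NM_001198823 was 0.53, and without the 4 libraries that led their groups in these markers it was 0.55, against 0.56. Both fits were of NM_001198823 alone and do not cover the sum for the Kunitz exon. The cause of either difference was not tested. The form without either exon, NM_007471, made up 94.1% of App counts in WT and 92.6% in KO.

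Syt1 encodes synaptotagmin 1, the calcium sensor of synaptic vesicle release. Its lead NM_001252341, with an extra exon of 80 bases, had shares of 2.90% to 5.37% in WT and of 5.39% to 7.87% in KO. The highest WT and the lowest KO library lay next to each other without overlap (means 4.46% and 6.80%, log2 change 0.62, SE 0.13, edgeR gene adjusted p = 0.822). Ywhaz encodes the 14-3-3 zeta adaptor protein. Its rare form NM_001253805, which lacks an exon of 197 bases found in NM_011740, had shares of 0.271% to 0.689% in WT and of 0.678% to 1.69% in KO, overlapping through WT CT22 replicate 2 and KO CT10 replicate 3. Abat encodes GABA transaminase, which breaks down the transmitter GABA. Its exon-skipping form NM_001170978 had shares of 1.1% to 2.51% in WT and of 1.44% to 6.78% in KO, where KO CT22 replicate 1 lay among the WT values.

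The remaining named genes with values above 0 in every library differ by first exons or splice sites, except Tacc1, whose lead holds 2 extra internal exons. Bcor encodes a corepressor partner of BCL6 and lies on chromosome X (12036738 to 12160355, minus strand), as does Nono. Its lead NM_029510 had shares of 42.0% to 66.6% in WT and of 8.25% to 40.5% in KO. The form NM_175045, which lacks the 345-base version of an internal exon that the lead holds, had shares of 0% to 14% in WT and of 16.6% to 59.3% in KO. Neither set of groups overlapped, but the gene held only 89 to 254 counts per library and neither transcript passed (edgeR adjusted p = 1.00 for both).

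Vdac3 encodes a mitochondrial outer-membrane channel. Its forms differ by 3 bases, and the form without them, NM_011696, had 3.15% to 6.65% in WT and 6.74% to 11.7% in KO. Ppp2r3a, a regulatory subunit of protein phosphatase 2A, had its upstream-start form NM_001161362 at 64.4% to 84.3% in WT and 81.9% to 95.1% in KO. Tacc1, Uba1 and Dpysl3 had their lead transcripts at means of 53.5%, 3.91% and 57.6% in WT and of 45.4%, 2.83% and 46.2% in KO, with overlapping groups. None of these 5 genes passed (edgeR gene adjusted p = 1.00).

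In the other 6 named genes the lead transcript was listed at 0 in 3 or 4 libraries, so no fold is given. The zinc finger gene Zfp790 had its lead at 18.2% to 51.5% in the WT libraries, at 1.14%, 39.7% and 30.0% in KO at CT10 and at 0% in all 3 KO libraries at CT22. Dcun1d2, Trpc4ap and Dnajb6 were likewise listed at 0% in all 3 KO libraries at CT22, with WT means of 8.48%, 2.77% and 1.53%. Arhgef1 was listed at 0% in the 3 WT libraries at CT10, and Npcd in the 3 WT libraries at CT22. Over all tested transcripts, 4 (0.075%) were listed at 0 in all 3 libraries of just one group and above 0 in the other 9. These 4 were the leads of Zfp790, Dnajb6, Arhgef1 and Npcd, which were themselves named for their low p. The bases that tell the 6 leads from their partners numbered 3 for Dnajb6, 24 for Trpc4ap, 90 for Zfp790, 180 for Dcun1d2 and 291 for Npcd. For Arhgef1 they were 12 found only in the lead and 3 found only in its partner.

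**Figure D3:**
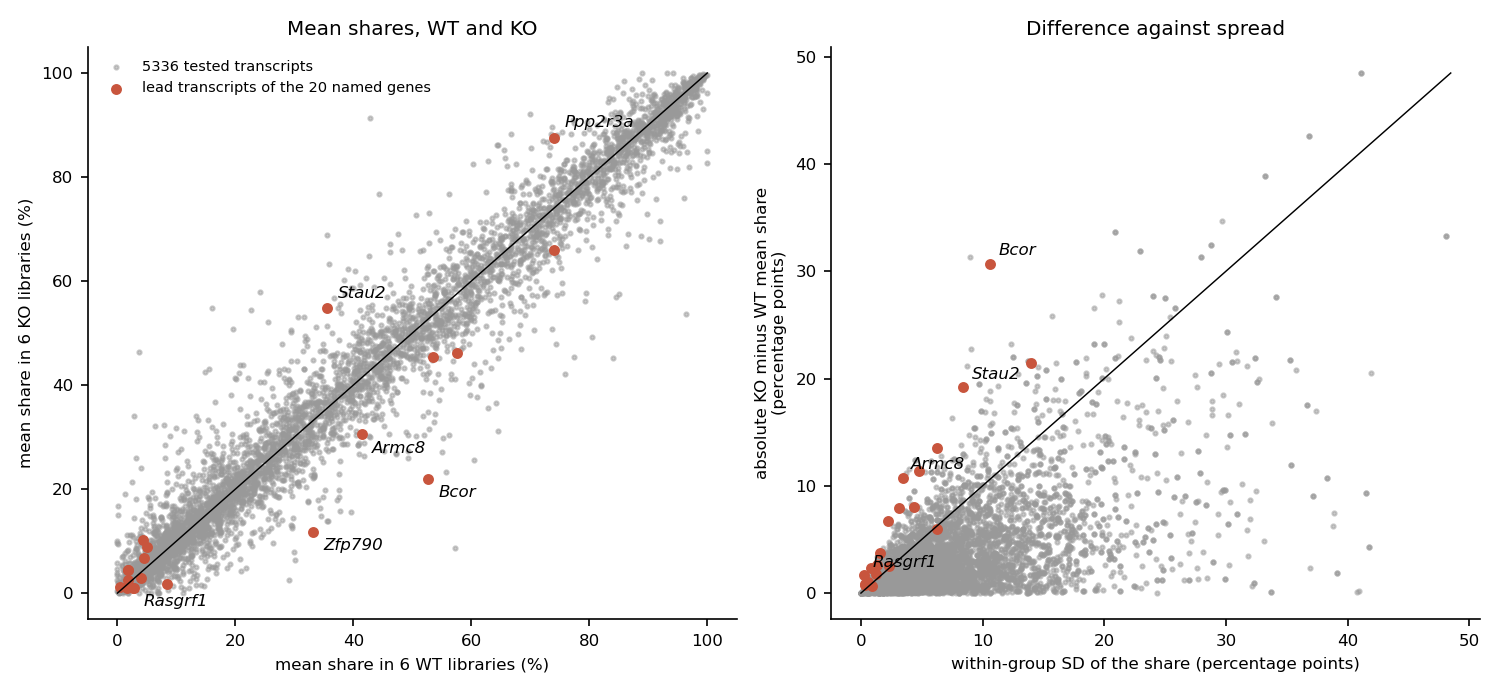
Left, mean share of each of the 5336 tested transcripts in the 6 WT (horizontal) and 6 KO libraries (vertical), in %, with the line of equality. Right, absolute difference of these means against the SD within groups, in percentage points; most transcripts lie below the line, with a median difference of 2.32 points and a median SD of 6.21 points, and the lead transcripts of the 20 named genes are in orange.

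The spread between libraries set what could be seen. The SD of a share within groups had a median of 6.21 percentage points and a 90th percentile of 16.4, while the difference between KO and WT means had a median of 2.32 points and a 90th percentile of 9.17. For 3364 transcripts (63.0%) the approximate 95% interval of the change lay inside 2-fold either way, and for 2495 (46.8%) inside 1.5-fold. Of the 4262 transcripts with a mean share of at least 10%, 3171 (74.4%) had an interval inside 2-fold. For the others the interval reached past 2-fold. Of the tested transcripts 1364 (25.6%) were listed at 0 in at least one library, and 342 ranged from under 5% to over 50% among the 12.

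Sfpq, the DBHS paralog of Nono, was the 1 of 2494 genes (0.0401%) whose summed level passed the gene-level test (log2 change 0.36, edgeR adjusted p = 0.0398), against 3 of all 14131 genes (0.0212%). Its messenger form NM_023603 and its noncoding form NR_045010, which ends at a farther last exon, differed in proportion between genotypes by less than the spread between libraries. The share of NM_023603 was 59.6% to 78.7% in WT and 63.3% to 72.0% in KO (means 66.7% ± 7.15 and 66.9% ± 3.64, SD, n = 6 each), with a 95% interval of the change from 0.897 to 1.12 times. Both forms stood higher in level by a similar amount, at 98.6 and 126 CPM for the messenger form (log2 change 0.36, edgeR adjusted p = 0.677) and at 48.7 and 62.8 CPM for the noncoding form (log2 change 0.36, edgeR adjusted p = 0.864). Neither passed as a single transcript. The third family member, Pspc1, is listed with 1 transcript and has no shares.

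The gene lists were read by their counts beside the 3.81% of all tested genes at an unadjusted p under 0.05 and a median absolute difference of 2.88 points for the lead transcript. In none of the 13 lists did a member pass the adjusted test, which 1 of all 2150 tested genes passed (0.0465%). Among paraspeckle proteins and DBHS partners 0 of 10 tested genes had an unadjusted p under 0.05, among SR proteins and their kinases 0 of 10, and among hnRNP and neuronal splicing regulators 0 of 23. The splicing factor Srsf1, whose forms differ by an intron retained in an exon, had its lead NM_173374 at 53.8% in WT and 53.9% in KO, with a 95% interval of 0.891 to 1.12 times. The lead of Srsf5 had 51.6% and 52.8% (0.935 to 1.12 times). Tardbp, which encodes TDP-43, had the noncoding form NR_027864 at 6.76% ± 1.08 in WT and 4.84% ± 1.07 in KO (SD, n = 6 each), and the neuronal splicing regulator Celf2 had its lead at 5.28% and 3.47%; neither gene passed.

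Genes of the synapse and of neuronal excitability were also without a passing member, beside 1 of all 2150 tested genes (0.0465%). Of 23 excitatory synapse genes 0 had an unadjusted p under 0.05, of 3 inhibitory synapse genes 0 and of 23 ion channel genes 1, Kcnip4. Ank2, which anchors channels to the membrane skeleton, had its lead at 35.6% and 34.8% (0.922 to 1.04 times). Of 18 presynaptic genes 3 had an unadjusted p under 0.05 (Syt1, Syn2 and Itsn1), and of 19 cytoskeleton and adhesion genes 3 (App, Kif1a and Bcan). Syn2 encodes synapsin 2, whose form NM_001111015, with the farther last exon, had 18.5% ± 1.82 in WT and 16.4% ± 0.674 in KO. Kif1a, a kinesin motor of axonal transport, had the form without an exon of 24 bases at 68.2% ± 2.85 and 63.9% ± 2.27 (SD, n = 6 each).

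Of 5 clock genes and of 6 activity-induced genes and CREB factors 0 had an unadjusted p under 0.05. The clock output gene Tef had its lead NM_017376 at 41.7% in WT and 45.4% in KO. At CT10 its range was 41.1% to 50.5% in WT and 42.8% to 49.6% in KO (log2 change −0.06). At CT22 it was 34.7% to 37.2% and 42.1% to 49.4% (log2 change 0.33), a difference between the labels that did not pass in edgeR. The casein kinase gene Csnk1d had its lead at 53.1% in WT and 49.1% in KO. Of 3 glucocorticoid-responsive genes 1 had an unadjusted p under 0.05, Sgk1, a kinase induced by corticosteroids. An upstream-start form of Sgk1 had 25.2% ± 7.85 in WT and 30.4% ± 2.31 in KO (SD, n = 6 each). At CT10 this form had 18.3% to 19.7% in WT and 27.2% to 30.4% in KO (log2 change 0.63), and at CT22 25.4% to 37.2% and 29.9% to 34.4% (log2 change 0.00), a difference that did not pass in edgeR (adjusted p = 1.00). Of 5 astrocyte and 5 oligodendrocyte genes 0 had an unadjusted p under 0.05. The glutamate transporter gene Slc1a2 had its lead at 38.6% to 48.1% in WT and 30.1% to 74.2% in KO. Mbp, which encodes myelin basic protein, had its lead at 3.66% and 5.33%.

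Pairs of leading transcripts were next grouped by how they differ, a grouping made after the values were seen, for 2145 genes whose 2 most abundant tested transcripts lie on one strand of one chromosome. A pair could show more than one kind of difference. Among 706 pairs with different first exons 25 genes had an unadjusted p under 0.05 (3.54%), among 260 with different last exons 13 (5.0%) and among 650 with a skipped internal exon 27 (4.15%). Among 119 pairs in which an exon of one spans an intron of the other the count was 3 (2.52%), and among 472 that differ by a splice site alone it was 14 (2.97%), against 3.82% over all pairs. The transcript with the nearer last exon was higher in KO in 126 pairs and lower in 134 (median log2 change 0.00), with 8 higher and 8 lower at an unadjusted p under 0.05. The transcript with the upstream first exon was higher in 376 and lower in 330 (median log2 change 0.01). Noncoding transcripts (RefSeq NR identifiers) were higher in 109 and lower in 112 of 221 tested, with 11 at an unadjusted p under 0.05 (4.98%), against 4.46% of 5115 coding transcripts.

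**Figure D4:**
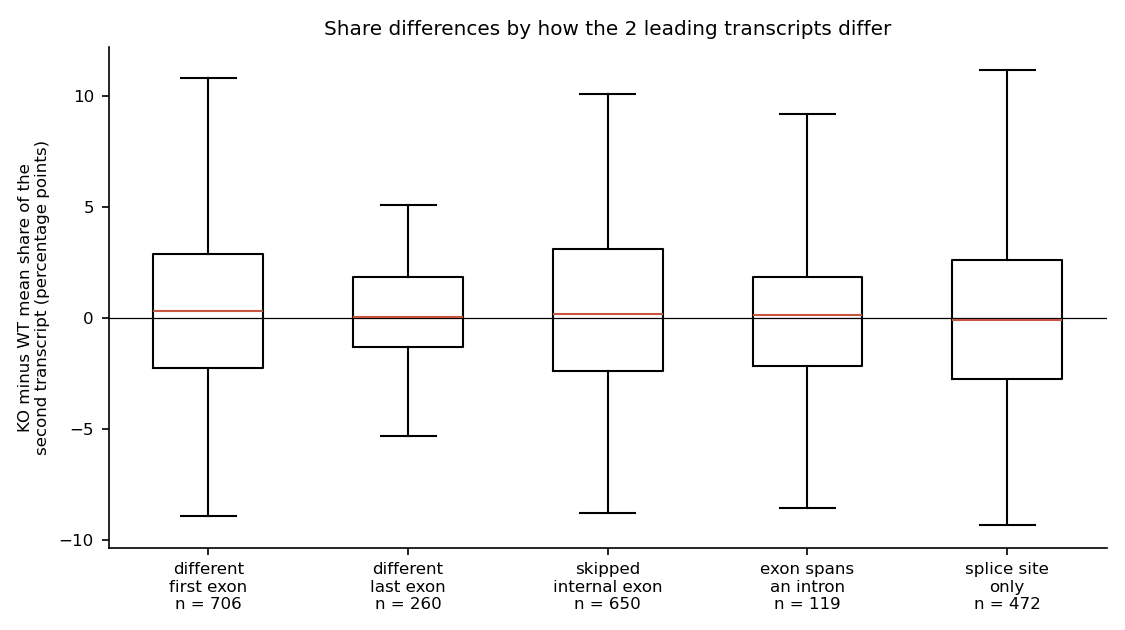
KO minus WT mean share of the second most abundant transcript of each pair (vertical axis, percentage points) by how the 2 leading transcripts differ. Boxes span the quartiles with the median in orange and whiskers the 5th to 95th percentiles; medians lie between −0.0826 and 0.327 points, and pairs with different last exons have the shortest whiskers, from −5.32 to 5.11 points.

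The spread was lowest for pairs with the most distinguishing bases, with no trend over the other classes. In the first of 4 equal classes of pairs, with the fewest distinguishing bases, 0 to 79, the SD of the share within groups had a median of 8.34 points, and in the last class, with 691 to 17854 bases, it was 4.16 points. The middle classes had 7.62 and 8.24 points. The part of this in any single result was not tested. Genes with 2, 3 and 4 or more transcripts had an unadjusted p under 0.05 in 4.04%, 3.0% and 4.12% of those tested.

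The comparisons within each CT label and between the labels called no gene. The genes named for these comparisons were chosen after their values were seen. At CT10 alone 0 of 2150 genes passed in edgeR (0%), with 81 at an unadjusted p under 0.05 (3.77%), and at CT22 alone 0 passed and 88 did (4.09%). Rasgrf1 had the lowest gene p in both (edgeR adjusted p = 0.189 and 0.572). For the difference of the KO effect between the labels 0 genes passed and 78 had an unadjusted p under 0.05 (3.63%), with the lowest in Ep400, a chromatin remodeller gene (edgeR adjusted p = 0.611). For CT22 against CT10 0 genes passed and 73 did (3.4%), with the lowest in Neo1, which encodes the guidance receptor neogenin (edgeR adjusted p = 0.936). Limma called 2, 2, 1 and 1 genes in these 4 comparisons with a pseudocount of 0.5, and DESeq2 called 28, 34, 36 and 32. All of these comparisons take the CT labels as given, although Dbp placed one KO library of each label with the other.

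DESeq2, fitted with the same gene-sum factors, called 41 transcripts and, in the separate gene test, 36 genes for KO against WT. Rasgrf1 and 14 others of the 20 named were among these genes. Of the 41 transcripts 29 were listed at 0 in at least one library and 31 had overlapping groups. Among all 5336 tested transcripts, 1364 (25.6%) were listed at 0 in at least one library and 24 (0.45%) had groups without overlap. Limma on log odds of the shares called 2 genes, Rasgrf1 and Plec, and edgeR's diffSpliceDGE, which sets each transcript against the rest of its gene, called 0, with a Rasgrf1 log2 change of −1.38 (gene adjusted p = 1.00).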

How the data were processed

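RNA from hippocampus was sequenced in 12 libraries (TruSeq Stranded mRNA kit, as the protocols in the labels say), and the authors deposited one table per library with RSEM estimated counts per RefSeq transcript on mm10, per the file headers and the submitters' processing notes, which name TopHat 1.3.3, RSEM 1.2.5 and edgeR 3.0.6. The deposited tables also give TPM and FPKM values, and a signal of transcript expression with posterior bounds of a level that the headers do not state. No label or header says if counting used strand. RSEM divides reads shared by transcripts by probability, so shares of near-identical forms carry an error beyond counting. A deposited table of the authors' comparison, with log2 ratios and p-values, was not used here.

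Estimated counts were rounded and tested with edgeR 4.0.16 (quasi-likelihood, robust) in R 4.3.3, with the log of the gene's summed count as offset and 4 group means. Gene p-values combine transcripts by Simes' method, with Benjamini-Hochberg adjustment over all genes tested. Intervals are 95%. DESeq2 1.42.0 and limma 3.58.1 served as alternatives. The code was tested on simulated data. The named genes are those past the threshold of 0.05, then those with the smallest unadjusted gene p until 20. From each list the 2 tested members with the highest mean count could be described, and Sfpq. The members and lists were chosen with earlier results of these data known. The list examples, the grouping by structure, the exon sums, the fit to posterior counts and the fit without the KO pair whose clock genes fitted the other CT label (CT10 replicate 3, CT22 replicate 1) were added after seeing the data, as were the alternatives for transcript levels.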

Additional observations from a re-analysis of the deposited data

How the results depend on the processing

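For KO against WT, 1 transcript and 1 gene were called in the reported fit, with no low-count filter, with a gene sum minimum of 20, with genotype plus CT label, without the CT label and with posterior counts. Both counts were 0 with a mean share of at least 5% (which removes the Rasgrf1 transcript), with a gene sum minimum of 200 (Rasgrf1 gene adjusted p = 0.0520), in diffSpliceDGE with either scaling, without the 4 libraries that led their groups in choroid plexus markers (0.463), with their score as covariate (0.0921) and without the KO pair whose clock genes fitted the other CT label (0.0590). Except for the first, the cause was not tested. Limma called 3 transcripts and 2 genes with a pseudocount of 0.5, and 3 transcripts and 1 gene with 5; DESeq2 called 41 and 36. At CT10, CT22, for the difference and for CT22 against CT10, where the reported fit called 0, DESeq2 called 34, 37, 41 and 40 transcripts and 28, 34, 36 and 32 genes. Limma with 0.5 called 4, 0, 1 and 1 transcripts and 2, 2, 1 and 1 genes, and with 5 it called 3 transcripts and 2 genes at CT10 and 1 transcript for CT22 against CT10. diffSpliceDGE called 2 transcripts and 3 genes at CT22 and 1 of each for the difference. Without that KO pair, 1 transcript and 1 gene were called at CT10, 5 and 4 at CT22, and 1 transcript for CT22 against CT10. Leaving out each library in turn gave 0 to 4 transcripts and 0 to 3 genes for KO against WT, 0 to 2 and 0 to 2 at CT10, 0 to 8 and 0 to 7 at CT22, 0 to 4 and 0 to 2 for the difference, and 0 to 2 and 0 to 2 for CT22 against CT10. The Rasgrf1 gene call was lost in 6 of 12 such runs, without WT CT10 replicates 1, 2 or 3, KO CT10 replicate 2, or WT CT22 replicates 1 or 2. The summed level of 1 gene passed in the reported fit, 4 in DESeq2 and 0 to 2 when a library was left out; for transcript levels the counts were 1, 56 and 0 to 3. With the replicate block, 0 transcripts and 0 genes changed share (Rasgrf1 gene adjusted p = 0.202), and 0 passed for gene or transcript level. The labels number the libraries without saying whether the numbers pair them. Of 18 same-numbered pairs 0 had deviations correlated over 0.1 (−0.0511 to 0.0683 across 3269 transcripts). Shares that spread this much between libraries could hide a pairing, so it is not excluded. Of 547 alternative values of the lead transcripts, 520 stayed on the same side of the threshold, 14 passed it (all in DESeq2), 13 of Rasgrf1 no longer did, and 0 changed direction. The leads were picked for low p in these same libraries, so a kept direction was close to given. Leads other than Rasgrf1 did not pass in the reported fit, so for them the same side means not passing. Zeros limit the rarest forms: 1364 tested transcripts were listed at 0 in at least one library, and the part of depth in this was not tested.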

Other observations

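Besides the named genes and D14Ertd449e, 4 more held transcripts whose KO libraries all lay beyond all WT libraries, chosen here after their values were seen, and none passed the adjusted test in edgeR (adjusted p = 1.00). In Apbb2, which encodes an adaptor that binds the amyloid precursor protein, NM_001201413 had a mean share of 3.19% in WT and 26.0% in KO. In Tdrd3, a tudor domain gene, NM_001253755 had 11.9% and 24.4%. In the zinc finger gene Zfp467, NM_001085416 had 12.1% and 0.919%. In Anapc5, a subunit gene of the anaphase-promoting complex, NM_001042491 had 42.5% and 39.2%.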
